A study of Homo sapiens with 2 samples.

Results

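Fibronectin, tenascin-C and 8 further genes of the extracellular matrix were examined in untreated U87MG cells, an established line grown from a human glioblastoma. The genes were taken by symbol from the list FN1, TNC, SPARC, THBS1, THBS2, POSTN, SPP1, FBN1, LOX and LOXL2. Each of the 10 had exactly 1 row among the 21445 genes of the mRNA library, 14376 of them protein-coding. The series holds 1 mRNA library and 1 small RNA library of these cells, grown in MEM with 10% FBS and 1% Pen-Strep antibiotics, with no replicate, no treated cells and no normal brain cells. Per the labels, the RNA integrity number was 9.3 for total RNA and 8.7 for small RNA. All values of genes are FPKM, fragments scaled by the length of the gene and the size of the library, as the authors deposited them, so levels of different genes are set side by side per length, as far as the length used for each gene was right. With 1 library no value has an error, no difference could be set against a spread between replicates, and no test was made.

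The extracellular matrix is a meshwork of secreted proteins that holds cells in place and carries signals to them. Fibronectin and fibrillins build its fibres, and lysyl oxidases cross-link collagen and elastin within it. Matricellular proteins such as SPARC, tenascins, thrombospondins, periostin and osteopontin bind the fibres and cell receptors and change how cells attach and move. The normal adult brain holds little fibrous matrix, whereas glioblastomas deposit fibronectin and tenascin-C, above all around vessels and at the invading edge.

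The genes reached high levels with few exceptions, and they fell into 7 genes above 100 FPKM and 3 far below. All 10 were at 1 FPKM or more, against 64.6% of all listed genes and 77.5% of coding genes. At 10 FPKM or more stood 9 of the 10, against 31.3% of all listed and 43.8% of coding genes, and at 100 FPKM or more 7 of the 10, against 3.2% of all listed and 3.83% of coding genes. The median of the 10 was 231 FPKM, against 7.82 FPKM over coding genes and 2.96 FPKM over all listed genes. Their summed 2577 FPKM made up 0.688% of the coding FPKM sum. The largest step in the order by ratio lay at its low end, where THBS2 was 5.70 times POSTN, and the next largest between THBS1 and SPP1, a ratio of 5.02.

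**Figure D1:**
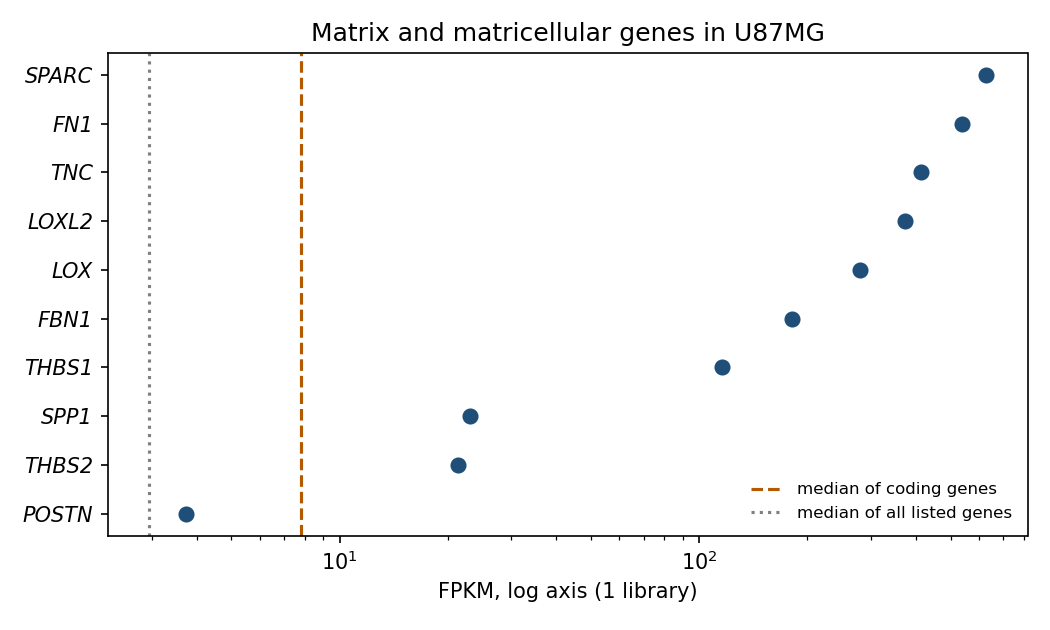
FPKM on a log axis of the 10 genes, 1 point a gene from 1 library, with the median of coding genes (dashed, 7.82) and of all listed genes (dotted, 2.96). SPARC to THBS1 lie between 626 and 116 FPKM, SPP1 and THBS2 at 23.0 and 21.4, and POSTN at 3.74, below the coding median.

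SPARC and FN1 led the order. SPARC (ENSG00000113140, chromosome 5), a secreted calcium- and collagen-binding glycoprotein that loosens cell attachment, was at 626 FPKM, rank 61 among coding genes and 80.1 times their median. FN1 (ENSG00000115414, chromosome 2), the fibronectin that integrins assemble into fibrils, was at 538 FPKM and rank 77. SPARC was thus 1.16 times FN1, a step for which no error is known. By level SPARC stood between the coding genes CD63 (635 FPKM), a tetraspanin of endosomes, and RPSA (625 FPKM), a protein of the small ribosomal subunit. FN1 stood between SOD2 (539 FPKM) and CFL1 (537 FPKM), the actin-severing cofilin. The FPKM is given per gene, so the spliced forms of fibronectin, among them the extra domains A and B of tumour vessels, could not be told apart.

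TNC followed the fibronectin gene closely. TNC (ENSG00000041982, chromosome 9), whose product tenascin-C is a multi-armed glycoprotein that weakens adhesion to fibronectin and is abundant in glioblastoma, was at 413.7 FPKM, rank 106 among coding genes. Its neighbours by level were SQSTM1 (414 FPKM) and HNRNPA1 (397 FPKM). The other tenascins could not be set beside it, since TNR, the tenascin of perineuronal nets, TNXB and TNN had no row. A missing row is not by itself a lack of expression: of 19974 RefSeq coding genes 69.6% had one, and for TNXB only 1 of the 10 nearest coding genes did, against 6 of 10 for TNR and 8 of 10 for TNN.

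Thrombospondins were led by THBS1. THBS1 (ENSG00000137801, chromosome 15), an inhibitor of vessel growth that also activates latent TGF-beta, was at 116 FPKM, rank 465 among coding genes. THBS2 (ENSG00000186340, chromosome 6), its closest relative, was at 21.4 FPKM and rank 3397. THBS1 was 5.41 times THBS2 and 9.31 times THBS3 (12.4 FPKM). The length listed beside THBS2 was 83, against 1170 for THBS1, and a part of the length in their ratio was not tested. THBS4 was at 0.678 FPKM and COMP, the thrombospondin of cartilage, had no row although all 10 of its nearest coding genes had one. Among the 4 thrombospondins with a row, THBS1 alone was above 100 FPKM. Of the 6 tenascin and thrombospondin relatives 2 had a row. Of these 2, 1 was at 1 FPKM or more, against 77.5% of coding genes with a row.

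Osteopontin and periostin, both prominent in the literature on gliomas, stood low among the 10. SPP1 (ENSG00000118785, chromosome 4), which encodes osteopontin, a secreted ligand of CD44 and of integrins, was at 23.0 FPKM, rank 3140 among coding genes. SPARC was 27.2 times SPP1. POSTN (ENSG00000133110, chromosome 13), which encodes periostin, a binder of collagen and integrins, was the lowest at 3.74 FPKM, rank 9170 and percentile 36.2 among coding genes. It was the one gene of the 10 below the median of coding genes, at 0.479 times that median. Its paralogue TGFBI, the other secreted protein built of the same repeated fasciclin domains, was at 1779 FPKM, 475 times POSTN. The length listed beside TGFBI was 219, against 836 for POSTN, and a part of the length in this ratio was not tested.

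The relatives of periostin and osteopontin were mostly without a row. Of 7 such genes 2 had a row. Of these 2, 1, TGFBI, was at 1 FPKM or more, against 77.5% of coding genes with a row. STAB1, a scavenger receptor with fasciclin domains, was at 0.0513 FPKM, and STAB2 had no row. SPP1 lies on chromosome 4 beside DSPP, DMP1, IBSP and MEPE, which encode bone and tooth matrix proteins of the same family. None of these 4 had a row, so SPP1 alone of this family was listed. Rows were sparse in this region. Of the 10 nearest coding genes 4 had one for DSPP, IBSP and MEPE and 5 for DMP1, against 69.6% of RefSeq coding genes.

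FBN1 was above every listed gene of the fibrillin microfibril and elastic fibre list. FBN1 (ENSG00000166147, chromosome 15), the fibrillin of microfibrils that store latent TGF-beta, was at 181 FPKM, rank 282 among coding genes. FN1 was 2.97 times FBN1, and FBN1 was 6.30 times its paralogue FBN2 (28.8 FPKM), the fibrillin of development. FBN3 had no row. Just below FBN1 by level stood HTRA1 (180 FPKM), a secreted protease that cuts matrix proteins. Of 17 microfibril and elastic fibre genes 16 had a row. At 1 FPKM or more stood 11 of these, against 77.5% of coding genes with a row. The median of the 16 was 7.21 FPKM, near the 7.82 FPKM of all coding genes. The highest were ELN (68.9 FPKM), which encodes elastin, EFEMP2 (49.9 FPKM), which brings lysyl oxidase to elastin, and LTBP1 (40.3 FPKM), which binds latent TGF-beta. None of the 17 reached 100 FPKM, and EMILIN1 (0.194 FPKM) was the lowest with a row.

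Both lysyl oxidases on the list were high and close together. LOX (ENSG00000113083, chromosome 5), the copper enzyme that starts the cross-linking of collagen and elastin, was at 280 FPKM, rank 166 among coding genes. LOXL2 (ENSG00000134013, chromosome 8), a relative that acts mainly on the collagen of basement membranes, was at 373 FPKM, rank 121. LOX was 0.751 times LOXL2, which stood next to HIF1A (373 FPKM), an oxygen-regulated transcription factor. Of the other family members LOXL1 was at 82.2 FPKM, LOXL3 at 70.1 FPKM and LOXL4 at 0.505 FPKM. LOX was thus 3.41 times LOXL1 and LOXL2 4.54 times. The length listed beside LOXL2 was 101, against 417 for LOX and 574 for LOXL1. A part of the length in the ratios with LOXL2 was not tested. BMP1, the protease that cuts LOX to its active form, was at 20.9 FPKM, while its relatives TLL1 and TLL2 were at 0.0253 and 0.0177 FPKM. FURIN, which activates BMP1, was at 10.6 FPKM. All of these 7 relatives and proteases had a row. At 1 FPKM or more stood 4, against 77.5% of coding genes with a row. The same 4 were at 10 FPKM or more, against 43.8%.

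In the wider matricellular families examined, FSTL1 and TGFBI were the only genes with a row above 100 FPKM. In the SPARC family 5 of 7 had a row, and 3 of these were at 1 FPKM or more. The share of coding genes with a row at that level was 77.5%. FSTL1, a secreted glycoprotein with a SPARC-like domain, was at 186 FPKM, SPOCK1, a proteoglycan, at 83.6 FPKM and SMOC1 at 28.8 FPKM. SPARC was 3.37 times FSTL1, while SPARCL1, the SPARC relative of mature astrocytes, and SMOC2 had no row. The CCN family, matricellular proteins of which some are induced by YAP and TGF-beta, had a row for 5 of 6 genes. All 5 were at 1 FPKM or more, against the same 77.5%. WISP2 (37.5 FPKM), CTGF (31.1 FPKM) and CYR61 (29.7 FPKM) were its highest, WISP1 was at 3.67 FPKM, and WISP3 had no row. Over all 62 relatives and receptors 47 had a row, and 34 of these were at 1 FPKM or more, against 77.5% of coding genes with a row.

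**Figure D2:**
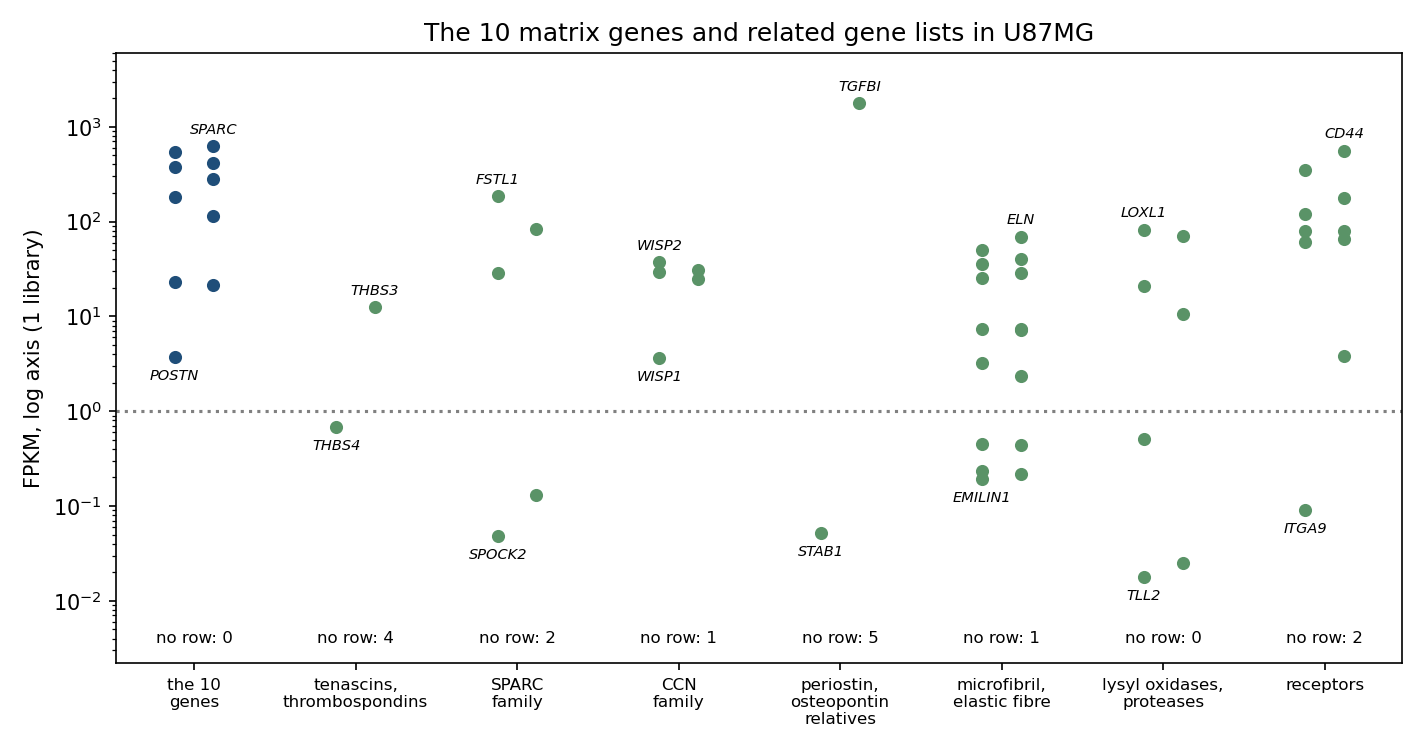
FPKM on a log axis of the 10 genes (blue) and 7 related lists (green), 1 point a gene from 1 library; the dotted line is 1 FPKM, side-by-side offsets only separate points, and genes without a row are counted at the foot. For a gene with 2 rows the higher is drawn. All 10 genes lie above the line, and so do 34 of the 47 related genes with a row.

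The receptors of these proteins ranged from high to very low levels. Of 12 receptor genes 10 had a row, and 9 were at 1 FPKM or more, against 77.5% of coding genes with a row. At 100 FPKM or more stood 4, ITGB3 among them, against 3.83%. Of these, CD44, ITGB1 and the higher row of ITGB3 had short listed lengths (80, 136 and 35). Coding genes with a listed length of 1 to 100 were at 100 FPKM or more in 9.84%, and those of 101 to 200 in 7.96%. CD44, a receptor of osteopontin and hyaluronan, was highest at 560 FPKM, followed by ITGB1 at 348 FPKM and ITGA5 at 177 FPKM, the pair that forms the main fibronectin receptor. ITGA9, a partner in a tenascin-C receptor, was at 0.0903 FPKM, and ITGA8 and the thrombospondin receptor CD36 had no row. The symbol ITGB3, a subunit of the receptor for osteopontin, had 2 rows, at 120 and 0.639 FPKM, with listed lengths of 35 and 787. The level of ITGB3 is therefore uncertain.

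The file gives a length beside 13842 of the 14376 coding genes, with no unit and in the range of protein lengths, and this length was short for LOXL2 (101) and THBS2 (83). Their relatives LOXL3 and THBS1 were listed with 753 and 1170. Among the receptors, CD44 and ITGB1 were listed with 80 and 136. The length by which the FPKM was divided is not given in the sources used here, so a part of the length in these levels was not tested. Coding genes with a listed length of 1 to 100 had a median of 11.0 FPKM and those of 101 to 200 of 12.1 FPKM, against 7.15 FPKM for 401 to 800. Among genes of 1 to 100, 9.84% were at 100 FPKM or more, and among those of 101 to 200, 7.96%. LOXL2 was far above the median of its length class and THBS2 closer to its own.

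**Figure D3:**
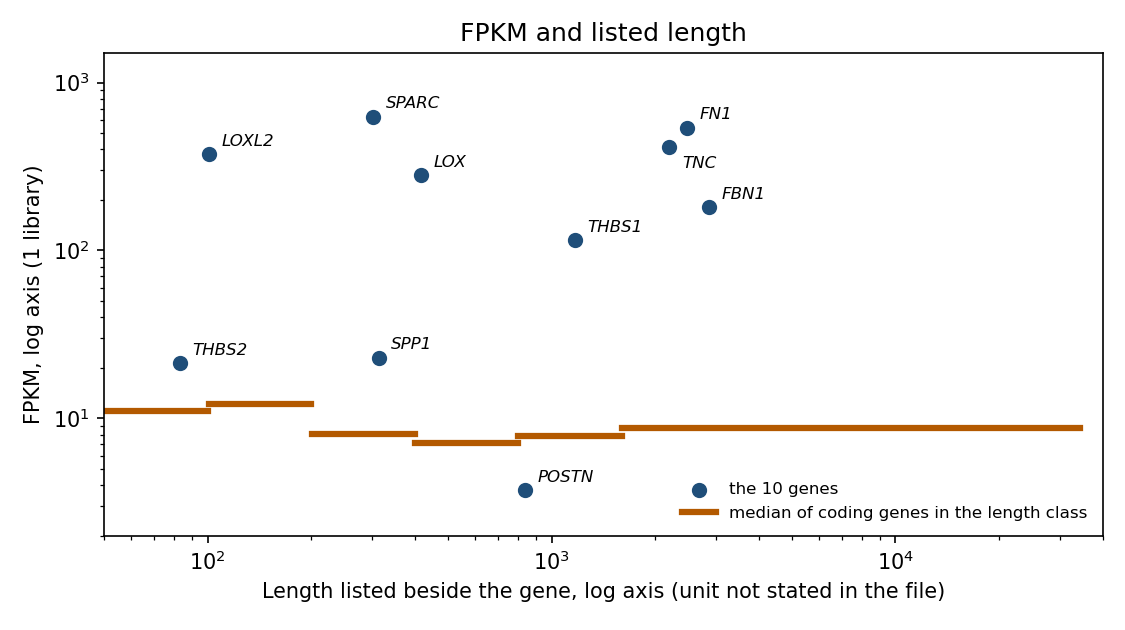
FPKM of the 10 genes against the length listed beside each gene, both on log axes, with the median FPKM of coding genes in 6 length classes as bars. Of the 10 genes, POSTN (3.74 FPKM) lies under the bar of its class; LOXL2 and THBS2 have the shortest listed lengths, 101 and 83.

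Weighting each level by the listed length gives a rough measure of how much of the library each gene took up. The listed lengths lie in the range of protein lengths and are not known to follow the transcripts, so the weighted shares are not shares of reads. FN1 then held 40.9% of the sum over the 10 genes, against 20.9% of the plain FPKM sum. TNC held 27.96% and FBN1 16.0%, so these 3 long genes led the weighted order. SPARC, first per length with 24.3% of the FPKM sum, held 5.83% of the weighted sum. For LOXL2 (1.16%) and THBS2 (0.0544%) the weighted share rests on their short listed lengths.

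**Figure D4:**
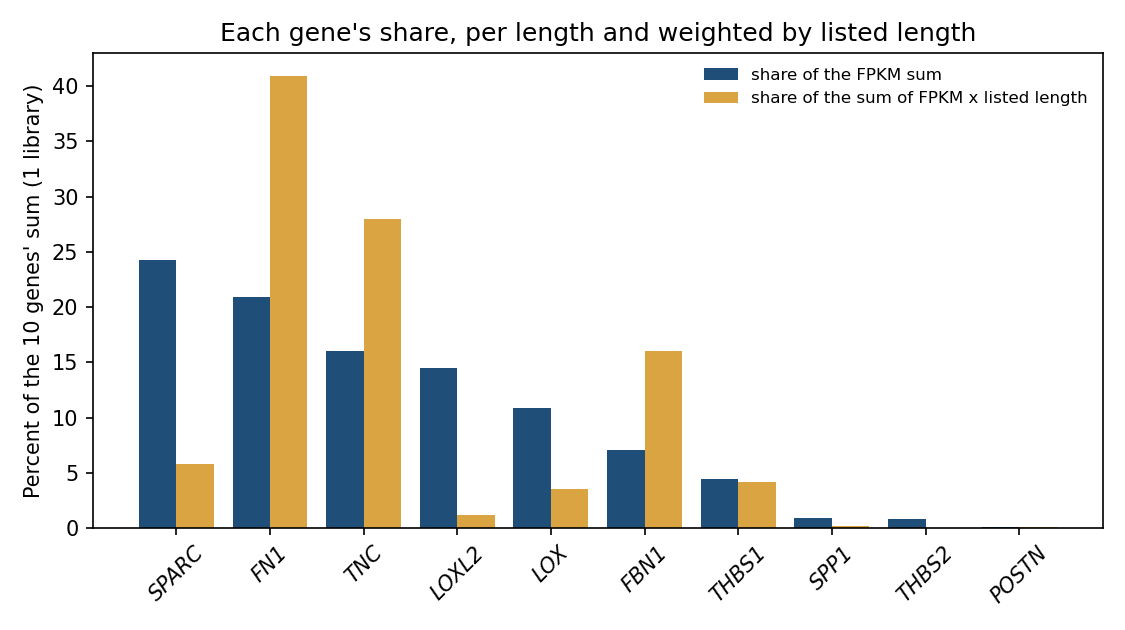
Percent of the 10 genes' FPKM sum (blue) and of their sum of FPKM times listed length (yellow), bars from 0, 1 library. FN1 holds 20.9% of the first and 40.9% of the second; SPARC holds 24.3% and 5.83%.

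The bases before the transcription start are shown for 6 genes that span the order of levels, the 2 highest (SPARC, FN1), TNC, the THBS1 and THBS2 pair and the lowest (POSTN). They come from the RefSeq promoter table (GRCh38.p14), a later build than the hg19 named in the submitters' processing notes, and each line ends at the base before the start. Capitals mark TATAA on the gene's strand, the core of the TATA box, and TGACGTCA, the cyclic AMP response element.
FN1, chr2:215436069-215436258, minus strand: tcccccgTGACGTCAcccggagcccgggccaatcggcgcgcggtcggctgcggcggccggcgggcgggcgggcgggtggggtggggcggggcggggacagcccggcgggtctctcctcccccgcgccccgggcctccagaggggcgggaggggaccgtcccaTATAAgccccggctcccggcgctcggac
TNC, chr9:115118158-115118237, minus strand: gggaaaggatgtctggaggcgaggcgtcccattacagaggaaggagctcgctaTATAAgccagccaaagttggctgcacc
SPARC, chr5:151686916-151686995, minus strand: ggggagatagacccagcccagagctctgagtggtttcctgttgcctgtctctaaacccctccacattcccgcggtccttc
THBS1, chr15:39580999-39581078, plus strand: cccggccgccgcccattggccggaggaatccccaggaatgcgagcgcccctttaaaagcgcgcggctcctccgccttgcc
THBS2, chr6:169253847-169253926, minus strand: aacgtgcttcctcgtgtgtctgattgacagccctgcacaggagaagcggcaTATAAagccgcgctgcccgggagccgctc
POSTN, chr13:37598769-37598848, minus strand: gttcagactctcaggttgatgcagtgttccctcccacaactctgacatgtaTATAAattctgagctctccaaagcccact

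A TATAA core at the usual distance from the start was found in genes of very different levels. The table held a window of 250 bases before to 50 after the start for 9 of the 10 genes; for LOX, with 3 starts, the one farthest upstream was used. Searched on both strands, TATAA was present in 4 of the 9 windows, against 20.4% of all 35116 windows and 13.4% of the 15465 windows of coding genes with a row. In each of the 4 a match began 27 to 29 bases before the start on the gene's strand. A TATAA on that strand beginning 40 to 20 bases before the start was present in 3.91% of all windows. Among the windows of coding genes with a row the share was 3.30%. All 4 windows with TATAA are among those shown above, and the windows of SPP1, FBN1 and LOX, not shown, had none. The 4 genes were FN1 (538 FPKM), TNC (413.7 FPKM), THBS2 (21.4 FPKM) and POSTN (3.74 FPKM), so the motif was found near both ends of the order.

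Of the other motifs, again counted on both strands, none was in more than 4 of the 9 windows. TGACGTCA, at 183 bases before the start of FN1, was in 1 of the 9 windows, against 1.85% of all windows and 2.56% of those of coding genes with a row. TGANTCA, the AP-1 site, was only in the window of POSTN, against 7.71% and 5.77%. CCAAT was in 3 of the 9 (FN1, THBS1 and LOX), against 34.6% and 34.5%, and GGGCGG, the GC box, in 4 of the 9 (FN1, TNC, THBS1 and LOX), against 44.95% and 62.4%. The 250 bases before the start were 76.4% G and C in FN1 and 36.4% in POSTN, against a median of 58.0% over all windows. A match of letters is a description and does not show that a factor binds.

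Some miRNAs have been reported to lower the mRNA of these genes in other cells, and their mature sequences are shown so that the shared seeds can be compared. The sequences are those listed by the authors with T for U, identical to RefSeq, and capitals mark the seed, bases 2 to 8. miR-29 has been reported to act on SPARC, FBN1 and LOXL2, miR-335 on TNC in human breast cancer cells, miR-19 on THBS1 in mouse colon tumour cells, and miR-200 on FN1.
miR-29a-3p: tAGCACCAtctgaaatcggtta
miR-29b-3p: tAGCACCAtttgaaatcagtgtt
miR-335-5p: tCAAGAGCaataacgaaaaatgt
miR-19a-3p: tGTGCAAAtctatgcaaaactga
miR-200b-3p: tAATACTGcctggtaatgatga

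miR-29a was by far the most abundant of the 9 miRNAs examined. miR-29a-3p had 82988 of 11785001 miRNA reads, or 0.704% (exact Clopper-Pearson 95% interval 0.699 to 0.709%), rank 13 of 1224 miRNAs. miR-29b-3p, with the same seed, had 4651 reads, and miR-29c-3p, also with that seed, 135. miR-29a-3p thus had 17.8 times the reads of miR-29b-3p. miR-19a-3p had 1262 reads, miR-19b-3p, of the same seed, 1113, and miR-18a-5p, of the same cluster, 137. miR-200b-3p had 864 reads and miR-200c-3p, of the same seed, 205, while miR-335-5p had 486. The reads carry no molecular identifiers, and the interval covers counting error only. The reported miR-29 targets SPARC (626 FPKM), LOXL2 (373 FPKM) and FBN1 (181 FPKM) were high in the same cell line as miR-29a-3p, and 1 library of each kind does not show whether the miRNA lowers them.

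The marker genes of other cell types were read beside these levels. Of 7 fibroblast and pericyte markers all 7 were at 1 FPKM or more, between 13.7 and 535 FPKM, against 77.5% of coding genes with a row. Of 6 astrocyte markers 3 had a row, and 2 were at 1 FPKM or more, GJA1 (143 FPKM) and SLC1A3 (19.3 FPKM). GFAP, the filament of mature astrocytes, was at 0.331 FPKM. S100B, AQP4 and ALDH1L1 had no row, which is not by itself a lack of expression. Of 5 endothelial markers 3 had a row, and 1 was at 1 FPKM or more, KDR (3.29 FPKM). Of 5 microglia and macrophage markers 3 had a row, and 1 was at 1 FPKM or more, CSF1R (1.51 FPKM). The 77.5% of coding genes is also the background of the astrocyte, endothelial and microglia counts, each over only 3 genes with a row. The part of these markers in the levels of the matrix genes was not tested.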

How the data were processed

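Small RNA and mRNA of untreated U87MG cells were sequenced, 1 library each. The FPKM values were deposited by the authors per Ensembl gene, scaled by length and library size. The miRNA read counts were deposited by the authors per mature miRNA and are not normalized. The lengths listed beside the genes are the authors' other values. Per the submitters' processing notes, cutadapt and the builds hg19 and GRCh37 were used; no aligner, counter or FPKM program is named in the sources used here. The labels repeat the small RNA protocol for the mRNA library. For the mRNA the sequencing depth is unknown, and its FPKM carry no interval.

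From these files, levels, ranks, percentiles and medians of log2(FPKM + 1) were computed with Python 3.11.15 and pandas 2.3.3, and intervals with scipy 1.17.1. The medians printed in FPKM are plain medians unless a pseudocount is named. A gene was counted at 1 FPKM or more. Genes were matched by symbol; for a symbol with 2 rows the higher counted. Functions were tested on simulated data. The genes and lists were chosen with earlier results of these data known. Named were the 10 genes, their neighbours by level, the 3 highest and the genes without a row of each list, and 9 miRNAs; others were chosen after their values were seen. Planned protein features were not analysed here, and the length weighting used the listed lengths in place of RefSeq proteins. The alternatives were other thresholds, pseudocounts, denominators and left-out genes.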

Additional observations from a re-analysis of the deposited data

How the results depend on the processing

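The count of the 10 genes above the threshold was 10 at 0.5 FPKM, 9 at 5 and at 10, and 7 at 100, within 1.5 times of the 10 at 1 FPKM. The median computed on the log2(FPKM + 1) scale was 225 FPKM; it was 181 without the highest gene and 280 without the lowest, and 225 with pseudocounts of 0.1 and 0.01. It was also 225 without the 2 genes of short listed length, a setting chosen after seeing the data. LOXL2 lies above the median and THBS2 below it, so leaving out both could not move it. This setting therefore says nothing about the listed lengths. The share of the coding FPKM sum, 0.688%, was 0.0729% of the sum over all listed genes and 0.786% without mitochondrial and ribosomal protein genes. The median percentile of the 10 genes was 98.49 among all listed genes, 98.45 among coding genes and 97.7 among genes at 1 FPKM or more. With a pseudocount of 1, the ratio of THBS1 to THBS2 was 5.21, of LOX to LOXL2 0.752, of FN1 to FBN1 2.96 and of SPARC to SPP1 26.1. In ratios added after seeing the data it was 0.00267 for POSTN to TGFBI, 6.12 for FBN1 to FBN2 and 3.35 for SPARC to FSTL1. A pseudocount added to both terms cannot change the direction of a ratio, so only its size could move. FN1 held 40.9% of the sum weighted by listed length, against 20.9% of the FPKM sum. Of the related genes 36 were at 0.5 FPKM or more and 30 at 5. The 9 miRNAs held 0.779% of the miRNA reads and 1.89% without miR-21-5p. No paired analysis was possible because there is 1 library of each kind. No mRNA depth is known, so small steps in the order, such as SPARC over FN1 or SPP1 over THBS2, have no error.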
